A study of Rattus norvegicus with 20 samples.

Results

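Voltage-gated sodium and calcium channels are described here through their subunit genes in the hippocampus of female rats. Members were chosen by symbol, from the genes of the count tables that matched Scn followed by a digit or began with Cacna, Cacnb or Cacng. The 37 genes reported are among the 17168 of each table, and all 37 had reads in both comparisons. They comprised 9 sodium channel α and 3 sodium channel β subunits, 10 calcium channel α1 subunits, 4 α2δ subunits, 4 calcium channel β subunits and 7 γ subunits. The rule used the symbols and no measured value.

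The rats were 20 females aged 4 months, and each gave 1 RNAseq library of hippocampal mRNA. The genotype comparison held 5 WTNT rats (wild-type, no treatment, fed normal chow) and 5 TGNT rats (TgF344-AD, no treatment, on the same chow). The treatment comparison held 4 other TGNT rats and 6 TGTR rats, TgF344-AD animals that ate diazoxide (DZ) and dibenzoylmethane (DIB) in their chow from day 52 of age until 4 months. TgF344-AD rats carry the human Swedish mutant APP transgene and a second human transgene, both under the prion promoter, so every rat of the treatment comparison carried both. All TGTR rats received DZ and DIB together, and the drugs cannot be told apart. The paper states that rats were tested in a radial arm maze at 4 months, under food restriction. Some of them were then taken for RNAseq. The labels give the tissue as left hippocampus whereas the methods of the study name the right. Whole hippocampi were sequenced, so fewer cells of a type and less RNA per cell cannot be told apart in any value below.

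Sodium channels open on depolarization and carry the rising phase of the action potential. Their pore is a single large α subunit, and the β subunits are small membrane proteins that set gating and surface density. Voltage-gated calcium channels couple depolarization to calcium entry: Cav1 (L-type) channels feed calcium to signalling towards the nucleus, Cav2 (P/Q-, N- and R-type) channels trigger transmitter release, and Cav3 (T-type) channels open near rest and support bursts. Their α1 pore is assembled with a cytoplasmic β and an extracellular α2δ subunit, while most brain γ subunits serve as auxiliary proteins of AMPA-type glutamate receptors (TARPs).

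Levels are given in RPM, the reads of a gene per unit of library size after TMM scaling within a table. RPM are not corrected for transcript length, and no level of one gene is therefore set against that of another. Fold changes are from edgeR's quasi-likelihood fit to the counts of all genes, with a 95% confidence interval, and calls required a Benjamini-Hochberg adjusted p under 0.05 together with a fold change of 1.5 or more in either direction. A gene was taken as measurable with a mean of at least 10 counts over the 10 rats of a table. In either comparison 30 members were measurable, and the other 7 (Cacna1f, Cacna1s, Cacna2d4, Cacng1, Cacng6, Scn10a and Scn11a) had 0 to 18 counts in any rat. Rats are separate animals, and the p-values measure the spread between them.

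Library totals ran from 5848458 to 9926088 estimated counts in the genotype comparison and from 9215039 to 14175594 in the treatment comparison, where a single read stood for 0.0709 to 0.101 RPM. App, which takes up reads of the transgene, measured 2187 ± 122 RPM in TGNT and 1101 ± 47.5 RPM in WTNT rats (SD, n = 5 each; log2 fold change 1.00, adjusted p = 2.45e-07 by edgeR). Rats of the treatment comparison, all transgenic, measured 2478 ± 179 RPM (TGNT, n = 4) and 2532 ± 163 RPM (TGTR, n = 6). Neuronal markers were well expressed (summed Rbfox3, Snap25, Syt1, Tubb3 and Map2 of 5075 to 8456 RPM). In the treatment comparison TGTR replicate 5 stood apart: its 5 choroid plexus markers summed to 2794 RPM, against 3.46 to 129.6 RPM in the other 9 rats. For the 7 channel genes with an unadjusted p under 0.05 in that comparison, values are also given without this rat.

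Sequence upstream of the genes is shown for Scn9a, which had the largest fold change of the measurable members between genotypes, and for an L-type gene, as examples whose 250 bases before the annotated start lie clear of the gene itself. RefSeq held 29 promoter entries (build GRCr8) for 26 of the 37 members. The GC box (GGGCGG, either strand), a site class of the Sp1 family, was present in 15 of them (51.7%), against 30.5% of all 33469 entries. Median GC content was 63.2% against 51.2%. The TATA box (TATAAA) was found in 2 entries, the CCAAT motif in 4 and the full CRE (TGACGTCA) in 0, against 12.9%, 34.0% and 1.59% of all entries. The Scn9a window (chr3:71701378-71701627, minus strand) held no GC box at 52.4% GC, whereas that of Cacna1d (chr16:5527550-5527799, minus strand) held 9, overlapping ones included, at 88.8% GC. The window of Cacna1c, the other measurable L-type gene, held no GC box at 54.4% GC. Capitals mark GC boxes in the pair below, written 5′ to 3′ on the gene's strand. The difference in motifs is a description of these letters.
Scn9a: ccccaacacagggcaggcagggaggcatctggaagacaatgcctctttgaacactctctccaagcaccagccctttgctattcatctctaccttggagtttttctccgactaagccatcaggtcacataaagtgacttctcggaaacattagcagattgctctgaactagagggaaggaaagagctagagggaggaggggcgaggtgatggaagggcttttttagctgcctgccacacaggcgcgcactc
Cacna1d: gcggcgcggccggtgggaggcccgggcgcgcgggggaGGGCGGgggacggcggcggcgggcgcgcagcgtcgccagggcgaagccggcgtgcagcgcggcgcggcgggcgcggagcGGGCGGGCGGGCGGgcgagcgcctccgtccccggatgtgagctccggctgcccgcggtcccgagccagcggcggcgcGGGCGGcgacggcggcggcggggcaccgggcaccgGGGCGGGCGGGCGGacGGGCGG

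No channel gene was called in either comparison by edgeR's quasi-likelihood test. Of all genes with reads, 0.0137% were called by genotype. By treatment 0.0% were called, with 511 genes higher and 332 lower at an unadjusted p under 0.05. The 95% interval of the fold change lay within 1.5 fold in either direction for 25 of the 30 measurable members between genotypes and for 27 of 30 between treatments. It lay within 1.25 fold for 16 and for 14 of them.

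**Figure D1:**
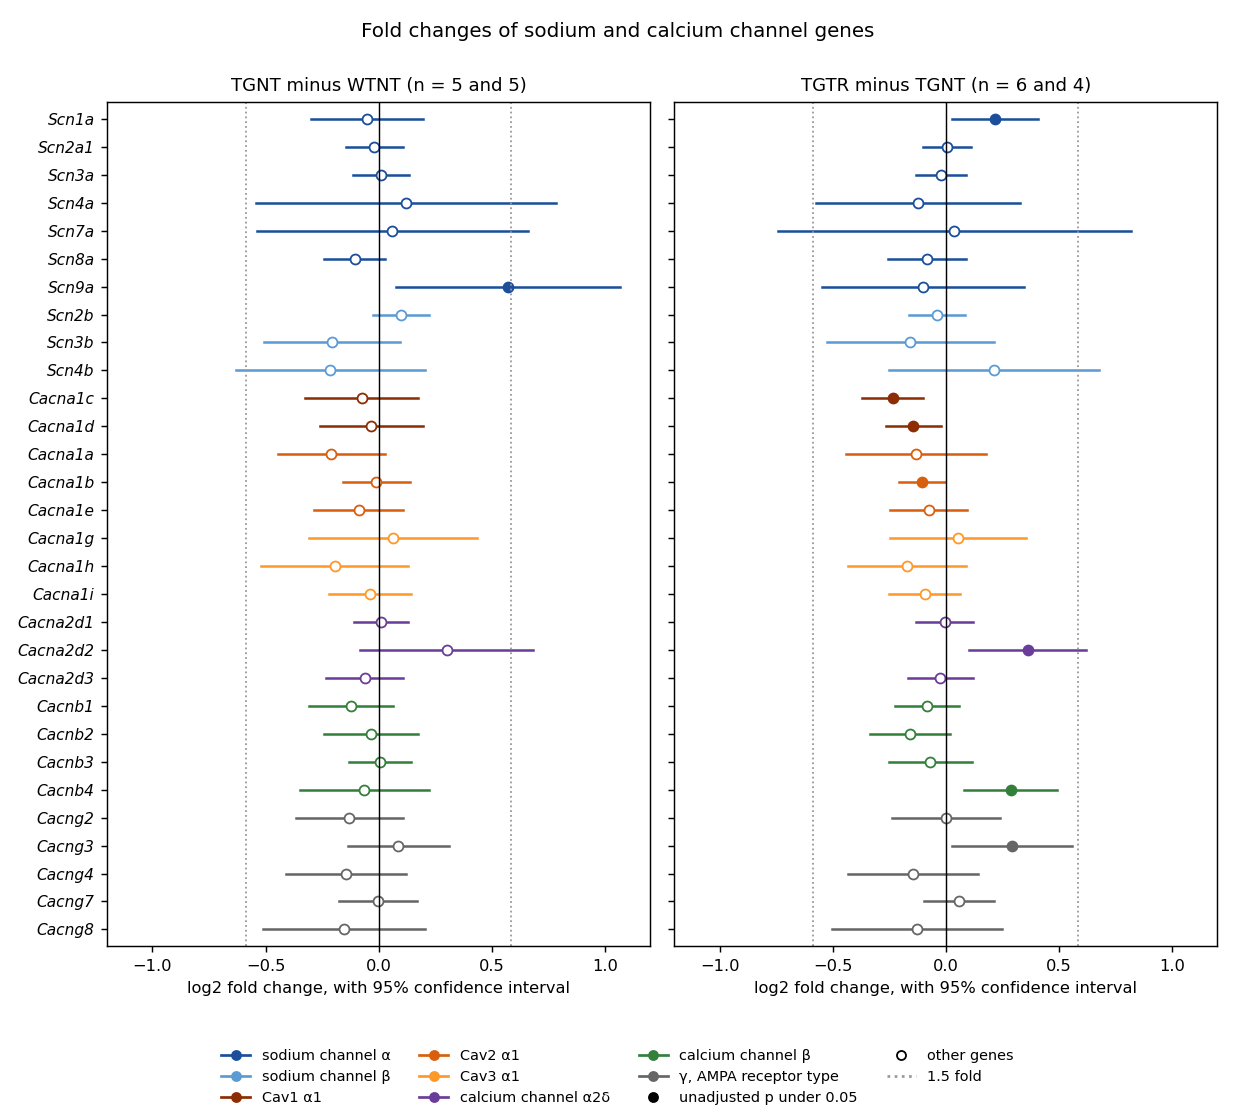
Log2 fold change of the 30 measurable channel genes (rows) with its 95% confidence interval (line), for TGNT against WTNT rats (left) and TGTR against TGNT rats (right). Colour gives the subunit class, filled points had an unadjusted p under 0.05 and dotted lines mark 1.5 fold. Most intervals include 0, and the filled points are 1 gene (Scn9a) on the left and 7 on the right.

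The genotype comparison asked whether channel transcripts differed between untreated transgenic and wild-type rats. At an unadjusted p under 0.05, 2 of 37 members were higher (5.41%) and 0 were lower in TGNT rats by edgeR, beside 2.02% and 1.76% of all genes with reads. In 0 members did the groups fail to overlap, against 0.314% of genes with TGNT entirely above and 0.287% with TGNT entirely below. The median log2 fold change of the measurable members was -0.04 (0.01 over all 11356 measurable genes). Of these members, 10 were above 0 (33.3%, against 52.4% of all measurable genes) and 20 below. The adjusted p was 1 for each of the 37 genes (edgeR quasi-likelihood test).

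Scn9a, which encodes Nav1.7, a channel best known from pain-sensing neurons, had the largest fold change of the measurable members. It measured 5.14, 3.68, 8.49, 3.24 and 5.10 RPM in WTNT rats 1 to 5, and 5.37, 7.99, 9.38, 8.01 and 7.48 RPM in TGNT rats 1 to 5. WTNT replicate 3 lay among the TGNT rats and TGNT replicate 1 among the WTNT rats, so the groups overlapped. The log2 fold change was 0.57 (standard error 0.233, unadjusted p = 0.0267, adjusted p = 1 by edgeR), and the exact two-sided permutation test of the RPM gave p = 0.0873. These levels rest on 19 to 74 counts per rat. Its estimated counts were fractional in each of the 10 rats, which means that RSEM shared reads between Scn9a and similar sequences, and its level is uncertain to that extent. In the treatment comparison, Scn9a measured 5.77 ± 1.75 RPM in TGNT (SD, n = 4) and 5.37 ± 0.983 RPM in TGTR rats (SD, n = 6), with a log2 fold change of -0.10.

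Cacna1s, the skeletal muscle Cav1 channel, was the other gene under this threshold, but on 1, 2, 1, 0 and 1 counts in WTNT and 4, 2, 5, 4 and 1 counts in TGNT rats. Counts this low overlapped between the groups and carry a wide interval of the fold, from 1.13 to 7.03.

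The sodium channel β subunits did not reach that threshold in edgeR's quasi-likelihood test. Scn3b (β3) measured 1113, 1136, 659, 1207 and 749 RPM in WTNT and 871, 771, 751, 917 and 886 RPM in TGNT rats. The WTNT rats thus fell into 3 high and 2 low values on either side of the TGNT group, and the fold was 0.866 (0.703 to 1.07). Scn4b (β4) measured 39.2 ± 10.98 RPM and 34.0 ± 9.03 RPM (SD, n = 5 each), a fold of 0.862 (0.646 to 1.15). Scn2b (β2) varied least of those described, with 102 ± 5.82 RPM in WTNT and 108 ± 2.13 RPM in TGNT rats (SD, n = 5 each), a fold of 1.07 (0.982 to 1.16; exact permutation p = 0.0476).

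**Figure D2:**
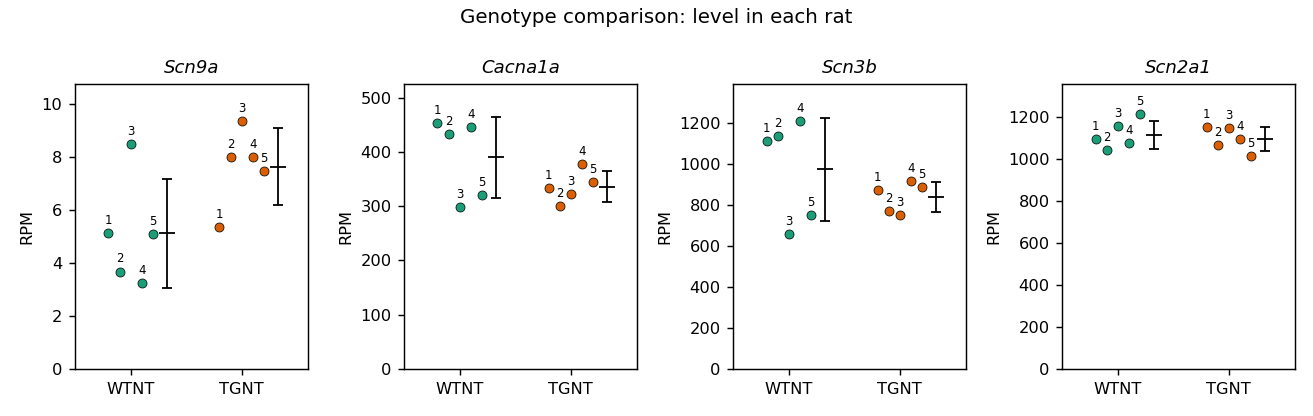
RPM of Scn9a, Cacna1a, Scn3b and Scn2a1 in each rat of the genotype comparison (points, numbered by replicate), with the group mean and SD beside them (n = 5 each). Scn9a was lowest in WTNT replicate 4 (3.24 RPM), Cacna1a and Scn3b spread widely among WTNT rats, and Scn2a1 lay between 1012 and 1212 RPM in all 10.

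The main neuronal sodium channel pores had folds near 1 by genotype. Scn2a1 (Nav1.2, found on excitatory axons) measured 1094, 1043, 1155, 1074 and 1212 RPM in WTNT and 1153, 1069, 1148, 1095 and 1012 RPM in TGNT rats, with interleaved groups and a fold of 0.986 (0.904 to 1.08). Scn3a (Nav1.3, the fetal-type channel) measured 131 ± 7.002 RPM and 131 ± 5.52 RPM (SD, n = 5 each), with a fold of 1.01 (0.923 to 1.10). Scn8a (Nav1.6, of the axon initial segment) had a fold of 0.928 (0.846 to 1.02). Scn1a (Nav1.1, prominent in inhibitory interneurons) had a fold of 0.965 (0.813 to 1.14). The weakly expressed Scn4a and Scn7a, known from muscle and from glia or sensory neurons, measured 0.994 to 6.21 RPM, and their fold intervals together ran from 0.687 to 1.72.

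Among the calcium channel pores, 7 of the 8 measurable α1 genes had a log2 fold change below 0 and none had an unadjusted p under 0.05. Cacna1a (Cav2.1, the P/Q-type channel of most fast synapses) had the largest of them, with 454, 433, 298, 445 and 319.8 RPM in WTNT and 333, 301, 322, 378 and 344 RPM in TGNT rats. Its fold was 0.865 (0.734 to 1.02). Again WTNT replicates 1, 2 and 4 were above every TGNT rat and replicates 3 and 5 were not. Cacna1e (Cav2.3) measured 675, 659.7, 478, 692 and 534 RPM in WTNT and 609.9, 584, 538, 579 and 535 RPM in TGNT rats, a fold of 0.941 (0.820 to 1.08). Cacna1b (Cav2.2) and Cacna1d (Cav1.3) had folds of 0.993 and 0.978. Cacna1c (Cav1.2) measured 254, 202, 159, 233 and 217 RPM in WTNT and 229, 168, 230.4, 175 and 203 RPM in TGNT rats. The TGNT rats lay inside the WTNT range, and the fold was 0.949 (0.799 to 1.13). Of the T-type genes, Cacna1i (Cav3.3) measured 130.3, 119, 137, 116 and 154 RPM in WTNT and 121, 141, 140.3, 117 and 118 RPM in TGNT rats, again with the TGNT rats inside the WTNT range (fold 0.974, 0.858 to 1.11). Cacna1h had a fold of 0.874 (0.697 to 1.09) and Cacna1g of 1.04 (0.808 to 1.35).

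The auxiliary calcium channel genes showed no call either. Cacna2d1, the α2δ subunit that binds gabapentin, measured 372, 402, 369, 404 and 376 RPM in WTNT and 406, 358, 381, 406 and 378 RPM in TGNT rats, and its fold of 1.01 (0.927 to 1.09) came from overlapping groups. Cacna2d2, another gabapentin-binding subunit, measured 12.9, 14.8, 24.6, 10.2 and 13.9 RPM in WTNT and 18.4, 21.1, 17.999, 20.95 and 16.4 RPM in TGNT rats. All of its WTNT rats but replicate 3 lay below all TGNT rats (fold 1.23, 0.943 to 1.61). Cacnb4, the calcium channel β4 subunit, measured 166, 231, 310.4, 193 and 204 RPM in WTNT and 195, 227, 195, 246 and 191 RPM in TGNT rats. WTNT replicate 3 was the highest and WTNT replicate 1 the lowest of the 10, and the fold was 0.957 (0.786 to 1.17). Cacnb1, Cacnb2 and Cacnb3 had folds of 0.918, 0.977 and 1.00. Of the TARP genes, Cacng8 measured 132, 105, 59.97, 111 and 75.0 RPM in WTNT and 107, 88.97, 76.7, 78.5 and 79.9 RPM in TGNT rats. The TGNT rats lay inside the WTNT range (fold 0.899, 0.702 to 1.15). Cacng2, Cacng3, Cacng4 and Cacng7 had folds of 0.914, 1.06, 0.905 and 0.997, so that 4 of the 5 TARP genes were below 1.

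A single wild-type rat weighed on these counts. WTNT replicate 3 was the lowest of the 10 rats in 9 of 30 measurable channel genes (30%, against 11.6% of all measurable genes), and the highest for Cacna2d2, Cacnb4 and Scn1a. It was also the lowest rat in summed dentate granule cell markers (138 RPM) and CA2 and CA3 markers (203 RPM). Its summed markers of oligodendrocytes (9872 RPM), their precursors (251 RPM), and thalamus and habenula (50.6 RPM) were the highest. The part of this in the channel genes was not tested. Without this rat, 9 channel genes had an unadjusted p under 0.05. Higher in TGNT rats were then Scn9a (log2 fold change 0.84) and Cacna2d2 (0.53). Lower were Cacna1a (-0.30), Cacna1e, Cacna1h, Cacnb1, Cacng8, Scn3b (-0.33) and Scn8a (-0.15). The lowest adjusted p of a channel gene was 0.634, so no channel gene was called without this rat. For fits that left out 1 rat, the share of all genes under the unadjusted threshold was not taken. Leaving out WTNT replicate 4 gave 0 genes, WTNT replicate 5 gave 6, and WTNT replicate 2 and TGNT replicates 1, 2 and 3 gave 1 each. Scn9a was under that threshold in 6 of the 10 fits without 1 rat. It was not without WTNT replicates 2 or 4 or TGNT replicates 2 or 3 (unadjusted p = 0.0803, 0.0692, 0.0502 and 0.0739), with log2 fold changes from 0.45 to 0.84 over the 10 fits. The wild-type rats also spread more: the median coefficient of variation of the measurable members was 16.1% in WTNT and 9.52% in TGNT rats, beside 11.5% and 10.7% over all measurable genes. No test of this difference in spread was made.

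In the treatment comparison, which asked what DZ/DIB changed in transgenic rats, the 7 channel genes with an unadjusted p under 0.05 were 3 calcium channel pores with lower means in TGTR rats, and 3 auxiliary subunits and 1 sodium channel pore with higher means. At an unadjusted p under 0.05, 4 of 37 members were higher (Scn1a, Cacna2d2, Cacnb4 and Cacng3, 10.8%) and 3 were lower (Cacna1c, Cacna1d and Cacna1b, 8.11%), beside 3.44% and 2.23% of all genes with reads. With library size as the only scaling the split was 4 higher and 1 lower. The adjusted p of these 7 genes was between 0.913 and 0.983, and none was called. The median log2 fold change of the 30 measurable members was -0.07 (0.00 over all 12029 measurable genes). Of these members, 10 were above 0 (33.3%, against 50.1% of all measurable genes) and 20 below.

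Cacna1c encodes Cav1.2, the predominant L-type pore of the brain. It measured 225, 248, 240.5 and 222 RPM in TGNT rats 1 to 4, and 191, 211.5, 206, 201, 172 and 208 RPM in TGTR rats 1 to 6. The highest TGTR rat was below the lowest TGNT rat, and Cacna1c was the single member whose groups did not overlap. Over all genes with reads, 0.639% had TGTR entirely below and 0.686% TGTR entirely above TGNT. The log2 fold change was -0.24 (standard error 0.0626, unadjusted p = 0.00244, adjusted p = 0.913 by edgeR), a fold of 0.850 with an interval from 0.774 to 0.933. The exact two-sided permutation test gave p = 0.00476, the smallest that 6 rats against 4 allow. Without TGTR replicate 5, which was the lowest rat, the log2 fold change was -0.20 (unadjusted p = 0.00160). Over all 22 alternatives its adjusted p ranged from 0.164 (DESeq2) to 1.

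Cacna1d encodes Cav1.3, the L-type pore that opens at more negative voltages. Its TGNT rats measured 117, 112, 131 and 123 RPM, and its TGTR rats ranged from 99.96 to 115.8 RPM with a median of 109 RPM. The TGTR rats reached into the lower part of the TGNT range. The fold was 0.905 (0.831 to 0.985; unadjusted p = 0.0238, adjusted p = 0.964 by edgeR; exact permutation p = 0.0333). Without TGTR replicate 5 the log2 fold change was -0.12 in place of -0.14 (unadjusted p = 0.0469). Cacna1c and Cacna1d were the measurable Cav1 genes.

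Cacna1b encodes Cav2.2, the N-type channel of presynaptic terminals. It measured 284, 264, 264 and 257 RPM in TGNT rats, and 239 to 262 RPM in TGTR rats with a median of 247 RPM. Of the 6 TGTR rats, replicate 2 alone was above the lowest TGNT rat. The fold was 0.929 (0.867 to 0.996; unadjusted p = 0.0395, adjusted p = 0.983 by edgeR; exact permutation p = 0.00952). Without TGTR replicate 5 the unadjusted p was 0.0597, and without TGNT replicate 1 it was 0.149. Cacna1e measured 592, 616, 668 and 702 RPM in TGNT and 525 to 672 RPM, with a median of 632 RPM, in TGTR rats, a fold of 0.949 (0.844 to 1.07). Cacna1i measured 243, 258, 213 and 203 RPM in TGNT and 195 to 234 RPM, with a median of 214 RPM, in TGTR rats, a fold of 0.937 (0.840 to 1.05). In both genes the groups overlapped. Cacna1a, Cacna1h and Cacna1g had folds of 0.912, 0.888 and 1.04, each with an interval that included 1.

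Cacnb4 encodes the β4 subunit, whose loss causes epilepsy and ataxia in mice. TGNT rats measured 117, 89.1, 97.99 and 106 RPM, and TGTR rats 110.2, 111, 126, 118, 148 and 138 RPM. Only TGNT replicate 1 lay inside the TGTR range. The fold was 1.22 (1.06 to 1.41; unadjusted p = 0.00983, adjusted p = 0.964 by edgeR; exact permutation p = 0.0429). The highest value was that of TGTR replicate 5, and without it the log2 fold change was 0.24 in place of 0.29 (unadjusted p = 0.0143). The other β genes had folds below 1: Cacnb1 of 0.944 (0.855 to 1.04), Cacnb2 of 0.897 (0.794 to 1.01) and Cacnb3 of 0.954 (0.839 to 1.08). Cacnb3 measured 156, 202, 183 and 190.4 RPM in TGNT rats and 142 to 196 RPM in TGTR rats, with a median of 177 RPM, and its groups overlapped throughout.

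Cacna2d2 was on the higher side in TGTR rats as it was in TGNT over WTNT rats. It measured 27.4, 17.7, 18.1 and 21.6 RPM in TGNT rats and 24.0 to 32.1 RPM, with a median of 26.9 RPM, in TGTR rats. TGNT replicate 1 was the exception, at the level of the TGTR rats. The fold was 1.29 (1.07 to 1.54; unadjusted p = 0.00998, adjusted p = 0.964 by edgeR; exact permutation p = 0.0333). Without TGNT replicate 1 the log2 fold change was 0.51 in place of 0.36, and without TGTR replicate 5 it was 0.36 (unadjusted p = 0.0122). Cacna2d1 measured 251, 277, 265 and 284 RPM in TGNT and 243 to 287 RPM, with a median of 271 RPM, in TGTR rats, a fold of 0.996 (0.913 to 1.09), and Cacna2d3 had a fold of 0.983 (0.891 to 1.09).

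Cacng3, the TARP γ3, measured 24.4, 30.2, 26.0 and 34.1 RPM in TGNT and 39.8, 26.7, 39.5, 37.0, 30.7 and 36.2 RPM in TGTR rats. The TGTR rats 1, 3, 4 and 6 were above every TGNT rat. The fold was 1.22 (1.02 to 1.47; unadjusted p = 0.0333, adjusted p = 0.964 by edgeR; exact permutation p = 0.0857). Without TGTR replicate 5 the log2 fold change was 0.33 in place of 0.29 (unadjusted p = 0.0185), and without TGNT replicate 1 it was 0.22 (unadjusted p = 0.101). The remaining TARPs Cacng2, Cacng4, Cacng7 and Cacng8 had folds of 1.00, 0.905, 1.04 and 0.916. Cacng8, γ8, which in the brain is concentrated in the hippocampus, measured 120.4, 188, 186 and 188 RPM in TGNT and 94.8 to 199.7 RPM, with a median of 161 RPM, in TGTR rats.

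Of the sodium channel genes, Scn1a alone was under the unadjusted threshold between treatments. It measured 183, 153, 169 and 171 RPM in TGNT rats and 159, 193, 197, 185, 227 and 218 RPM in TGTR rats. All TGTR rats but replicate 1 were above all TGNT rats. The fold was 1.16 (1.02 to 1.33; unadjusted p = 0.0279, adjusted p = 0.964 by edgeR; exact permutation p = 0.0762). Without TGTR replicate 5, which was the highest, the log2 fold change was 0.17 in place of 0.22 (unadjusted p = 0.0454). All 10 rats had fractional counts of Scn1a. Scn2a1 measured 758, 704, 742 and 769 RPM in TGNT and 690.0 to 795 RPM, with a median of 742 RPM, in TGTR rats, and its fold of 1.00 had an interval from 0.933 to 1.08. Scn3a, Scn8a and Scn9a had folds of 0.984, 0.945 and 0.932. Among the β genes, Scn3b measured 527, 855, 879 and 919.7 RPM in TGNT and 481 to 866 RPM, with a median of 740.3 RPM, in TGTR rats. Its fold was 0.897 (0.695 to 1.16), while Scn2b and Scn4b had folds of 0.973 and 1.16.

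**Figure D3:**
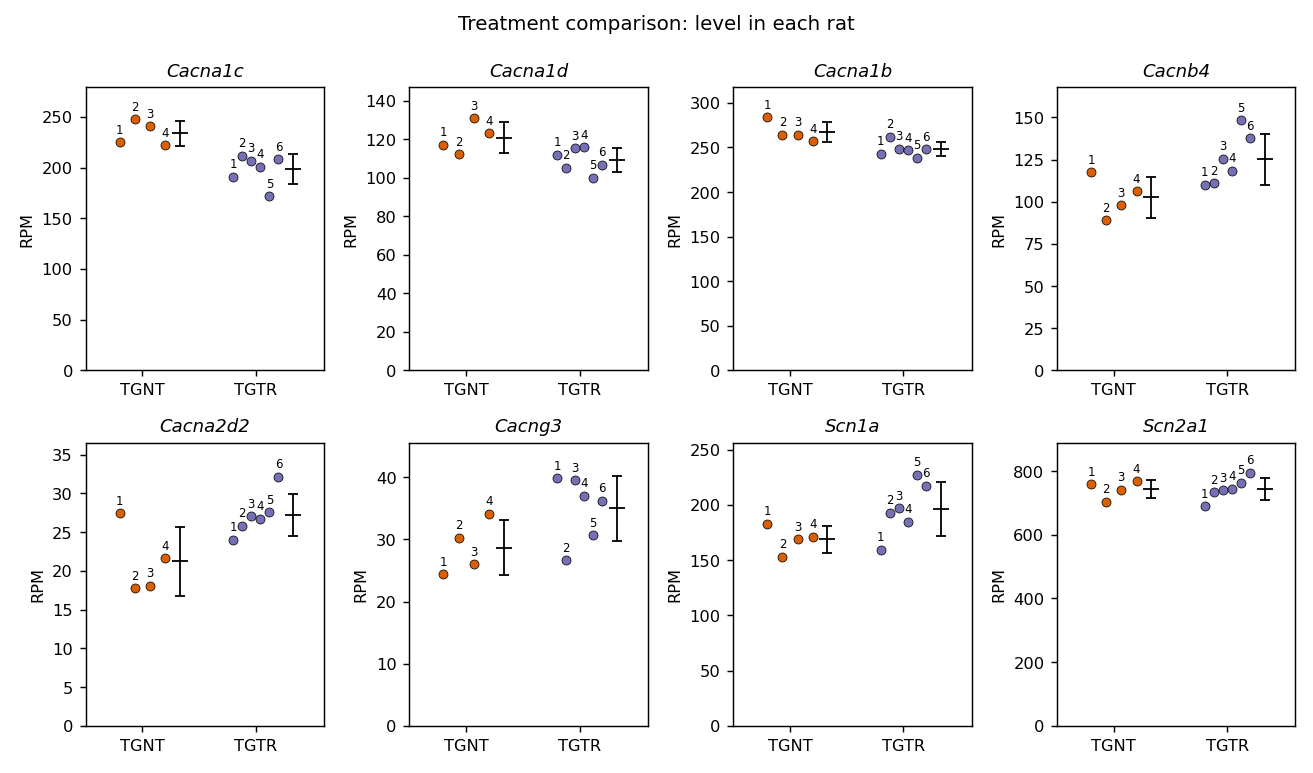
RPM in each rat of the treatment comparison (points, numbered by replicate) for the 7 channel genes with an unadjusted p under 0.05 and for Scn2a1, with the group mean and SD (n = 4 TGNT and 6 TGTR). Cacna1c is the panel in which the groups do not overlap (222 to 248 RPM in TGNT, 172 to 211.5 RPM in TGTR), whereas Scn2a1 lay at 690.0 to 795 RPM throughout.

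Markers of cell types were read beside these genes. The 5 markers of parvalbumin and other GABA neurons (Gad1, Gad2, Pvalb, Sst and Slc32a1) were all above 0 in log2 fold change and summed to 497 to 604 RPM in TGTR and 447 to 559 RPM in TGNT rats, with Sst under an unadjusted p of 0.05. The 5 CA2 and CA3 markers were all below 0 (Pcp4 under that p) and summed to 242 to 379 RPM in TGTR and 275 to 429 RPM in TGNT rats. The 4 thalamus and habenula markers found in the table were above 0 (Prkcd under that p), at 36.6 to 51.5 RPM against 33.6 to 37.6 RPM, and the 5 neuronal markers overlapped at 5075 to 5641 RPM and 5312 to 5459 RPM. All 5 choroid plexus markers were above 0 (3 under that p), and TGTR replicate 5 was the highest rat of that list. The 6 oligodendrocyte markers were all above 0, at 4688 to 7220 RPM in TGTR and 4018 to 6391 RPM in TGNT rats. The 6 endothelial and mural cell markers were all above 0 (2 under that p), at 190 to 301 RPM against 178 to 203 RPM. The 5 astrocyte markers were all below 0, at 2716 to 3565 RPM in TGTR and 2947 to 3359 RPM in TGNT rats. The 3 blood markers summed to 1286 RPM in TGTR replicate 4 and to 165 to 258 RPM in the other 9 rats. The part of these cell types in the values of Cacna1c, Scn1a, Cacnb4, Cacna2d2 and Cacng3 was not tested. Between genotypes, the 6 oligodendrocyte markers were all below 0, summing to between 4132 and 7458 RPM (TGNT) and between 4384 and 9872 RPM (WTNT), with Mbp and Mobp under that p. The 4 CA1 markers (258 to 512 RPM in TGNT, 335 to 585 RPM in WTNT) and the 5 CA2 and CA3 markers (239 to 269 RPM in TGNT, 203 to 361 RPM in WTNT) were also all below 0. The 5 microglia markers were all above 0 (136 to 147 RPM in TGNT, 130.1 to 141 RPM in WTNT). Of the 3 dentate granule cell markers in the table, Calb1 was higher under that p and the other 2 were below 0. The part of these cell types in the values of the channel genes was not tested.

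Several members shared the same low rats, within groups as well as between them. In the treatment comparison, TGNT replicate 1, TGTR replicate 2 and TGTR replicate 5 were the 3 lowest rats for each of 10 of the 30 measurable members: Cacna1a, Cacna1e, Cacna1h, Cacna2d1, Cacna2d3, Cacnb2, Cacng8, Scn3b, Scn4b and Scn8a. How often these 3 rats were the lowest over all measurable genes was not counted. TGTR replicate 5 was the lowest of all 10 rats in 18 members (60%, against 20.4% of all measurable genes), and the highest for Cacnb4 and Scn1a. It had the smallest library of the treatment comparison. Its summed markers of neurons, dentate granule cells, CA1, CA2 and CA3, astrocytes and microglia were each the lowest of the 10 rats. Those of oligodendrocyte precursors, choroid plexus, and endothelium and mural cells were the highest. The part of this in the channel genes was not tested. Without TGTR replicate 5, 4 members were higher and 2 lower at an unadjusted p under 0.05. Without TGNT replicate 1, 3 were higher (Scn1a, Cacna2d2 and Cacnb4) and 5 lower (Cacna1a, Cacna1c, Cacna1d, Cacna1h and Cacnb2), with a lowest adjusted p of 0.154. Without TGNT replicate 3, 2 were higher and 1 lower. The matching shares of all genes were not taken for these fits. Cacna1c, Cacna2d2 and Cacnb4 kept an unadjusted p under 0.05 in all 10 fits that left out 1 rat.

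**Figure D4:**
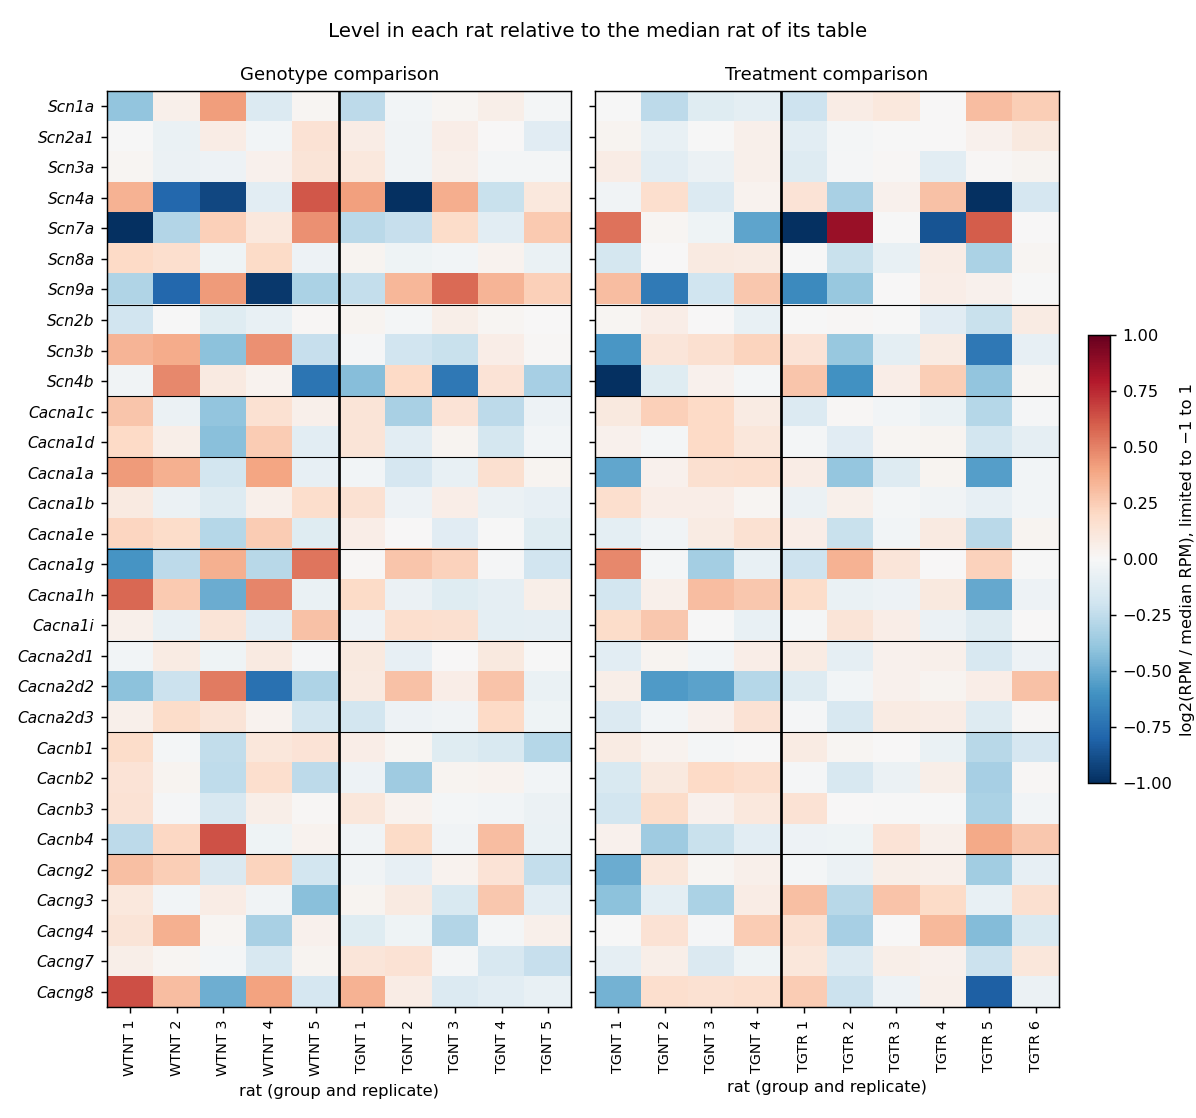
Level of the 30 measurable channel genes in each rat, as log2 of RPM over the median RPM of the 10 rats of that table (colour, limited to -1 to 1), with rats in columns and a line between the groups. Thin lines part the subunit classes. WTNT replicate 3 was lowest for 9 genes and TGTR replicate 5 for 18, seen as columns with much blue.

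The comparisons were set side by side as a description, since each table was scaled apart and the difference between their fold changes was not tested. The TGNT rats of the 2 comparisons also differed in level, in both directions. Cacnb4 averaged 211 RPM in TGNT rats of the genotype comparison and 103 RPM in those of the treatment comparison, whereas Cacng8 averaged 86.3 and 171 RPM. The cause of these gaps was not tested. Of the 30 measurable members, 14 had a log2 fold change below 0 in both comparisons and 4 (Cacna1g, Cacna2d2, Cacng3 and Scn7a) above 0 in both. A further 6 were above 0 between genotypes and below 0 between treatments, and 6 the reverse. Neither of the 2 genes under the unadjusted threshold by genotype was among the 7 by treatment, and those 7 had log2 fold changes between -0.08 (Cacna1c) and 0.30 (Cacna2d2) between genotypes.

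Several channel genes lie next to each other in the genome. By gene order in the GRCr8 annotation, Scn1a, Scn9a and Scn7a are direct neighbours among protein-coding genes on chromosome 3, as are Scn3a and Scn2a1. Scn2b lies beside Scn4b on chromosome 8. Cacng6, Cacng8 and Cacng7 follow each other on chromosome 1, and Cacng1 and Cacng4 on chromosome 10. Of the measurable members, 14 in the genotype comparison (46.7%) and 15 in the treatment comparison (50%) had a fractional count in at least 1 rat, against 19.1% and 18.5% of all measurable genes. Sodium channel α genes made up 6 of these in each comparison (all of the 7 measurable but Scn7a), and no α2δ or γ gene was among them.

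Genes whose proteins bind or regulate these channels were read from a list of 23, of which 19 were in the tables. Between genotypes 8 were above and 11 below 0 in log2 fold change, and 1 of the 19 was under an unadjusted p of 0.05, beside 2.02% (higher) and 1.76% (lower) of all genes with reads. That was Gem, a small GTPase that restrains calcium channel β subunits, with 5.64 ± 0.608 RPM in TGNT and 3.94 ± 0.524 RPM in WTNT rats (SD, n = 5 each; log2 fold change 0.53, unadjusted p = 0.00434, adjusted p = 1 by edgeR). As in 0.314% of all genes with reads, TGNT lay entirely above WTNT, at 4.98 to 6.41 RPM and 3.17 to 4.62 RPM. Between treatments 7 were above and 12 below 0, and 2 of the 19 were higher and 1 lower under that threshold, beside 3.44% and 2.23% of all genes with reads. Stac2, whose protein slows the inactivation of L-type channels, measured 36.2 ± 7.38 RPM in TGTR (SD, n = 6) and 25.2 ± 6.67 RPM in TGNT rats (SD, n = 4; log2 fold change 0.53, unadjusted p = 0.00823). Rem1, a relative of Gem, had a log2 fold change of 0.71 on a mean of 14.5 counts. Fgf13, which binds the tail of sodium channel α subunits, measured 241 ± 16.8 RPM in TGTR (SD, n = 6) and 268 ± 12.3 RPM in TGNT rats (SD, n = 4; log2 fold change -0.15, unadjusted p = 0.0239). The adjusted p of these 3 was 0.964, and none was called. Ank3, the ankyrin that anchors sodium channels at the axon initial segment, had log2 fold changes of -0.04 and -0.02 by genotype and by treatment.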

How the data were processed

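Hippocampal mRNA libraries of 20 rats (1 per rat) were made with a stranded kit. The authors deposited, for each comparison, estimated counts per gene symbol from RSEM, not normalized, and a signal in RPM scaled with TMM factors over the 10 rats of that table. The submitters' processing notes list bcl2fastq 2.17, Bowtie2 2.1.0, RSEM 1.2.15, edgeR and the rn6 build. The annotation and read filters are not given in the sources used here. Of the estimated counts, 87.9% to 89.4% per rat were whole numbers, and RSEM divides reads shared by similar sequences, which makes close paralogs uncertain.

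The counts were rounded, joined to RPM by symbol and fitted for each comparison alone with edgeR 4.0.16 (R 4.3.3), with TMM factors and a two-sided quasi-likelihood test on the 17168 genes, and Benjamini-Hochberg adjustment. RPM of single genes were compared with exact permutation tests over all arrangements of rats. The 37 channel genes were accounted for by class, and 3 further matching symbols are not reported here. Values by rat (for the 6 TGTR rats, in some genes their range and median) were given for members with an unadjusted p under 0.05, with groups that did not overlap, or with the highest mean RPM of their class, a rule of choice and not a ranking of genes. The members and gene lists were chosen with earlier results of these data known. On simulated data with 200 genes changed 2 fold among 17168, 95% were found with the rats of the genotype comparison (2.56% of calls false) and 82.5% with those of the treatment comparison (2.37% false). No smaller change was simulated, so these shares do not apply to folds of the size measured for the channel genes. Within groups, pairs of libraries differed by at least 2.12 times the counting variance, so none was a second reading of the same library. Libraries of different groups were not compared in this way. Depth and its precision are given with the results, and the alternatives are in the closing section. Symbols were matched to RefSeq (GRCr8) for names, order and promoters, 36 by symbol and Scn2a1 as a synonym. The build of the counts (rn6) differs, and none of its coordinates was used.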

Additional observations from a re-analysis of the deposited data

Results flagged for a closer look

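In 4 of 120 groups of measurable channel genes, 1 rat lay far from the others of its group, judged by its gap to the nearest rat over the range of the group. About 6 such groups would be expected by chance. Between genotypes, Cacnb2 was at 103 RPM in TGNT replicate 2, against 128 to 136 RPM in the other TGNT rats. Scn1a was at 221 RPM in TGNT replicate 1, against 261 to 277 RPM in the others. In the treatment comparison TGNT replicate 1 was low for Cacng8 (120.4 RPM, others 186 to 188 RPM) and for Scn3b (527 RPM, others 855 to 919.7 RPM).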

How the results depend on the processing

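The 2 genes called between genotypes numbered 4 by the exact test of edgeR and likewise 4 by the likelihood ratio test. Between treatments the count of 0 became 4 (exact test), 5 (likelihood ratio test), 3 (DESeq2) and 1 (replicate block). No channel gene was called under any of the 22 alternatives of either comparison. When 1 rat was left out, channel genes at an unadjusted p under 0.05 numbered 0 to 9 between genotypes (2 with all rats). Between treatments they numbered 3 to 8 (7 with all rats). The share of all genes was not taken in those fits. Fits without replicate pairing are the ones reported, since same-numbered rats did not deviate together in every pair (r from -0.210 to 0.340 between genotypes and -0.576 to 0.142 between treatments). Of the numbers, 2 of 5 and 0 of 4 correlated best with their own. With a replicate block the channel genes at an unadjusted p under 0.05 numbered 1, Scn9a, between genotypes and 1, Cacna1c, between treatments. TGTR replicates 5 and 6 had no TGNT rat of the same number, so they did not inform the treatment effect in that fit. Between genotypes, 1 (Scn9a) was also the count with DESeq2 and with either filter on low counts. It was 3 by the likelihood ratio test, with Scn11a added, and 3 in both limma-trend fits of log2 RPM, with Scn2b added. Between treatments, Cacng3 and Scn1a were not under that p in either limma-trend fit. Cacna1b was not under it by the exact test or the likelihood ratio test. The cause of these differences was not tested. The log2 fold changes of the 9 genes under that threshold kept their sign in each alternative, while 14 of 30 measurable members between genotypes and 11 of 30 between treatments changed sign in at least 1. Filters on low counts left Cacna1s without a value. For genes under about 10 counts a rat, depth limits what could be detected.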
